A study of Bos taurus and Capra hircus with 9 samples.

Results

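The miR-30 family of milk-derived extracellular vesicles (EVs) was described in 5 cows and 4 goats. Its members were taken by name, as every entry called miR-30 followed by a letter from a to f, with or without an arm suffix, and 7 of the 296 listed bovine miRNA entries met this rule. They were bta-miR-30a-5p, bta-miR-30d, bta-miR-30e-5p, bta-miR-30f, bta-miR-30c, bta-miR-30b-5p and bta-miR-30b-3p. The milk came from Holstein Friesian cows (numbers 1, 2, 3, 20 and 62; 30 ± 7 days in milk) and from primiparous Alpine goats (numbers 17, 44, 79 and 127; 26 ± 9 days in milk), with 1 library per animal. Age was stated for neither species and parity for the goats alone. The species were kept on different farms, and goat milk alone received a further acetic acid step, so species, breed, farm, the bovine reference and this step cannot be told apart. Values are TPM (tags per 1000000 tags), deposited as whole numbers and counted on bovine entries for both species. A library holds the small RNA of a whole vesicle preparation, in which fewer vesicles of a cell type and less RNA per vesicle cannot be told apart.

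miRNAs of the miR-30 family are loaded into Argonaute proteins and pair, through a short seed at their start, with messenger RNAs that they silence. Members that share the seed can pair with largely the same targets, while the rest of the molecule differs between them. In mammals the family is known for a part in keeping the epithelial state, for instance through the transcription factor SNAI1, and in autophagy through BECN1. In mouse mammary gland, excess miR-30b is known to disturb lactation and delay involution.

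The mature sequences are given here because the members differ by so few letters that their separate counting matters for each result. They were read from the deposited table, 5′ to 3′ with T for U, and capitals mark the seed, bases 2 to 8.
bta-miR-30a-5p: tGTAAACAtcctcgactggaagct
bta-miR-30d: tGTAAACAtccccgactggaagct
bta-miR-30e-5p: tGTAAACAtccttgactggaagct
bta-miR-30f: tGTAAACAccctacactctcagct
bta-miR-30c: tGTAAACAtcctacactctcagc
bta-miR-30b-5p: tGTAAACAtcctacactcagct
bta-miR-30b-3p: cTGGGAGGtggatgtttactt

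Of the 7 members, 6 carried the seed GTAAACA, and no other entry of the table did (6 of 296, 2.03%). The exception was miR-30b-3p, the opposite strand of the miR-30b precursor, with the seed TGGGAGG. By the letters after the seed the other 6 fell into sets of 3. miR-30a-5p, miR-30d and miR-30e-5p ended in GACTGGAAGCT, and miR-30b-5p, miR-30c and miR-30f held CCTACACTC, with each run found in 3 of the 296 entries (1.01%). Counting positions from 1 at the 5′ end, miR-30d differed from miR-30a-5p by T12C alone and miR-30e-5p from miR-30a-5p by C13T alone. Over their first 23 bases miR-30f and miR-30c differed by C9T alone, with miR-30f given first. The nearest entry outside the family was 9 edits away from any of these 6. The treatment of reads that fit more than one of these entries, such as miR-30a-5p and miR-30d, was not stated, so their separate values carry this uncertainty, whose size was not tested. Nor was it tested whether the goat forms match the bovine letters.

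In the bovine assembly ARS-UCD2.0 of RefSeq, taken in order of gene start, the 6 precursor genes lay as neighbours in pairs. MIR30D was next to MIR30B. MIR30C was next to MIR30E and followed the start of NFYC, the gene of a subunit of the NF-Y transcription factor. Gene ends were not compared, so whether NFYC or another gene overlaps the precursors was not checked. The starts of MIR30F and MIR30A had that of 1 uncharacterized locus between them. Each pair of neighbours held 1 form of each sequence set. Whether these genes lie in the same order in the goat genome was not checked.

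The family as a whole reached similar levels in both species. Its summed level was 39229, 38286, 27044, 24844 and 32035 TPM in cows 1, 2, 3, 20 and 62, and 40962, 27014, 36621 and 25942 TPM in goats 17, 44, 79 and 127. The mean was 32288 ± 6464 TPM in cows (SD, n = 5) and 32635 ± 7340 TPM in goats (SD, n = 4), and the ranges overlapped. No test was run on this sum, since its members were chosen. The listed total of a library ran from 239233 to 420029 TPM, and as a share of that total the family varied less between libraries. The share was 9.29% to 10.5% in cows (mean 9.63 ± 0.50%, SD, n = 5) and 9.90% to 10.8% in goats (mean 10.4 ± 0.44%, SD, n = 4). Without miR-148a, the most abundant miRNA, in the denominator, it was 15.2 ± 0.51% in cows and 14.5 ± 1.39% in goats. Among the 237 seeds of the table, GTAAACA ranked between 2 and 4 by summed TPM in the 9 libraries.

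The members were far from equal. miR-30a-5p and miR-30d together made up 93.2 ± 0.82% of the family in cows (SD, n = 5) and 90.0 ± 0.29% in goats (SD, n = 4). All 7 members passed the filter of more than 1 TPM in at least 4 libraries, and each was above 0 in all 9 libraries. Of the 7, 2 were higher in goats by limma on log2(TPM + 1), with p adjusted over all 217 tested entries, and none was lower. Across all 217 entries 61.3% differed between the species, 37.3% being higher and 24% lower in goats, so the count of 2 does not set the family apart. The median log2 fold change, goat minus cow, was 0.44 over the members and 0.24 over all tested entries.

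**Figure D1:**
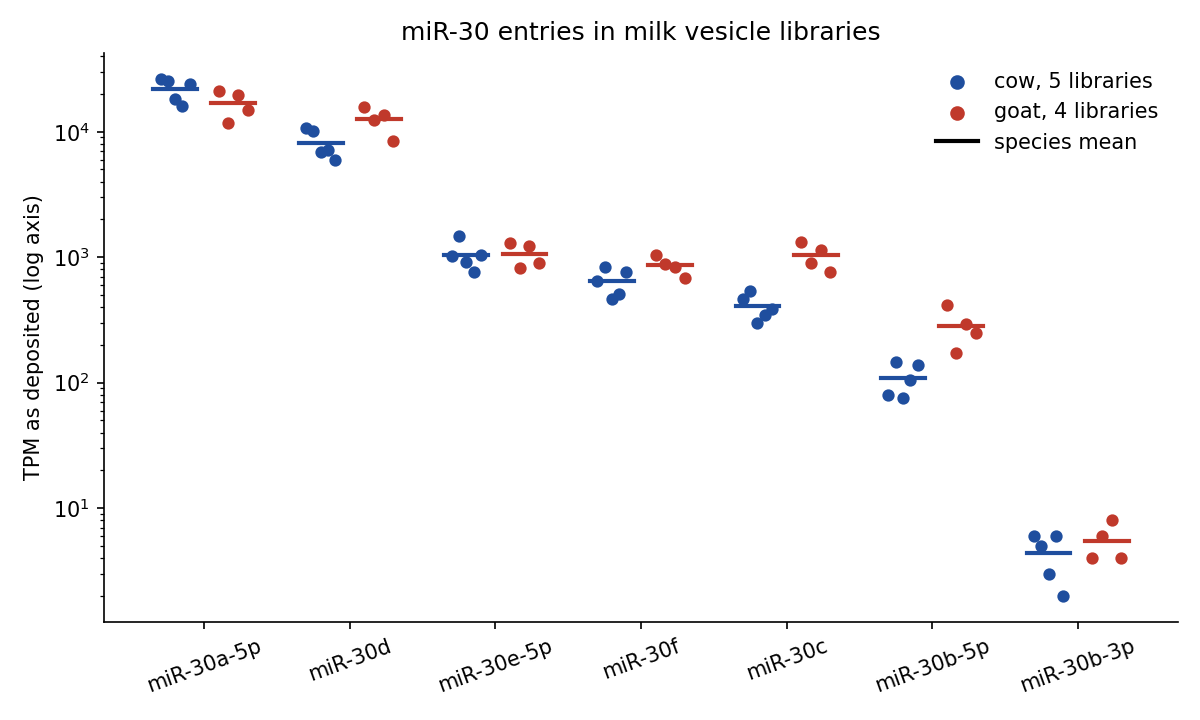
TPM of each miR-30 entry on a log axis, with a point for each library and a bar at the species mean (cow, 5 libraries, blue; goat, 4 libraries, red). The miR-30c and miR-30b-5p points of goats lie above all those of cows, whereas the points of the other entries overlap.

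bta-miR-30c, which in mouse liver is known to restrain lipoprotein output through the transfer protein MTTP, was higher in goats. It stood at 465, 533, 299, 348 and 387 TPM in cows 1, 2, 3, 20 and 62, and at 1324, 897, 1150 and 767 TPM in goats 17, 44, 79 and 127. Every goat was above every cow. The means were 406 ± 93.3 TPM (SD, n = 5) and 1034 ± 250.1 TPM (SD, n = 4), and by limma goats exceeded cows by a log2 value of 1.34 with a standard error of 0.26 (adjusted p = 3.14e-04). bta-miR-30b-5p, the form studied in mouse mammary gland, was also higher in goats, at a lower level. It read 80, 146, 76, 106 and 138 TPM in the cows, in the same order, and 415, 174, 293 and 247 TPM in the goats. Again no goat fell within the cow range, and goat 44 came nearest to it. The means of 109 ± 32.2 TPM in cows (SD, n = 5) and 282 ± 101 TPM in goats (SD, n = 4) gave by limma the same log2 difference of 1.34, with a standard error of 0.30 (adjusted p = 0.00131). These 2 of 7 members with separate ranges compare with 30.9% of all tested entries that had every goat above every cow and 20.3% that had every goat below.

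bta-miR-30d, a form that in human endometrium is released in vesicles taken up by the embryo, came next. It was at 10645, 10046, 6904, 7186 and 5916 TPM in cows 1, 2, 3, 20 and 62, and at 15730, 12421, 13593 and 8396 TPM in goats 17, 44, 79 and 127. Goat 127 lay within the cow range, and the other 3 goats lay above it. The means of 8139 ± 2079 TPM (SD, n = 5) and 12535 ± 3081 TPM (SD, n = 4) gave a log2 fold change of 0.62 (standard error 0.26) that narrowly missed the threshold (adjusted p = 0.0529, limma). Without goat 127 it passed (log2 fold change 0.80, adjusted p = 0.0123, limma), as it did without cow 1 or cow 2 (adjusted p = 0.0331 and 0.0432, limma). These were 3 of 9 runs with an animal left out. In all the other runs miR-30d missed the threshold, at adjusted p from 0.0885 to 0.140 (limma).

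bta-miR-30a-5p, the most abundant form and the one known for acting on BECN1, was the only member with a negative difference on the deposited TPM. It read 26371, 25251, 18387, 15926 and 23799 TPM in cows 1, 2, 3, 20 and 62, and 21144, 11809, 19517 and 14954 TPM in goats 17, 44, 79 and 127. Goats 44 and 127 were below every cow and the other goats were inside the cow range. With means of 21947 ± 4551 TPM in cows (SD, n = 5) and 16856 ± 4264 TPM in goats (SD, n = 4), the log2 fold change of -0.39 (standard error 0.26) missed the limma threshold at an adjusted p of 0.209. Its place among all entries was 3 in every cow and between 3 and 6 in the goats.

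bta-miR-30e-5p, whose gene neighbours that of miR-30c, gave nearly the same mean in both species. Its levels were 1014, 1463, 912, 765 and 1037 TPM in the cows, in the order above, and 1303, 821, 1217 and 894 TPM in the goats. The goat values lay inside the cow range, and limma gave a log2 difference of 0.03 with a standard error of 0.25 (adjusted p = 0.915). bta-miR-30f, whose gene lies near that of miR-30a, read 648, 842, 463, 507 and 756 TPM in the cows and 1042, 886, 843 and 680 TPM in the goats. All goats but 127 were above every cow, though the log2 fold change of 0.44 (standard error 0.25) missed the limma threshold at an adjusted p of 0.140. bta-miR-30b-3p was scarce, at 2 to 6 TPM in cows and 4 to 8 TPM in goats, so whole-number rounding limits it. It made up 4.17 ± 2.10% of both arms of miR-30b in cows (SD, n = 5) and 2.13 ± 1.06% in goats (SD, n = 4), with overlapping ranges, and its log2 fold change of 0.30 (standard error 0.33) was not past the threshold (limma, adjusted p = 0.447).

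The calls depended on how libraries were scaled. Scaled to the listed total, 4 members were higher in goats (miR-30c, miR-30b-5p, miR-30d and miR-30f) and miR-30a-5p was lower (log2 fold change -0.30, adjusted p = 0.0485, limma), against 44.7% of all tested entries higher and 26.3% lower. With miR-148a left out of that total, miR-30c, miR-30b-5p and miR-30d were higher and miR-30a-5p was lower (log2 fold change -0.48, adjusted p = 0.0101, limma), beside 39.2% and 30.4% of all entries. Median-of-ratios scaling gave the same 4 calls, with miR-30a-5p at a log2 fold change of -0.47 (adjusted p = 0.00721, limma), beside 39.6% higher and 30.9% lower. miR-30d passed under all 3 of these scalings (adjusted p = 6.52e-04, 0.00502 and 0.00983, limma). miR-30e-5p did not pass under any, and its sign turned under the last 2. The median log2 fold change over all tested entries was 0.34, 0.16 and 0.16 under these scalings, beside 0.24 on the deposited TPM.

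**Figure D2:**
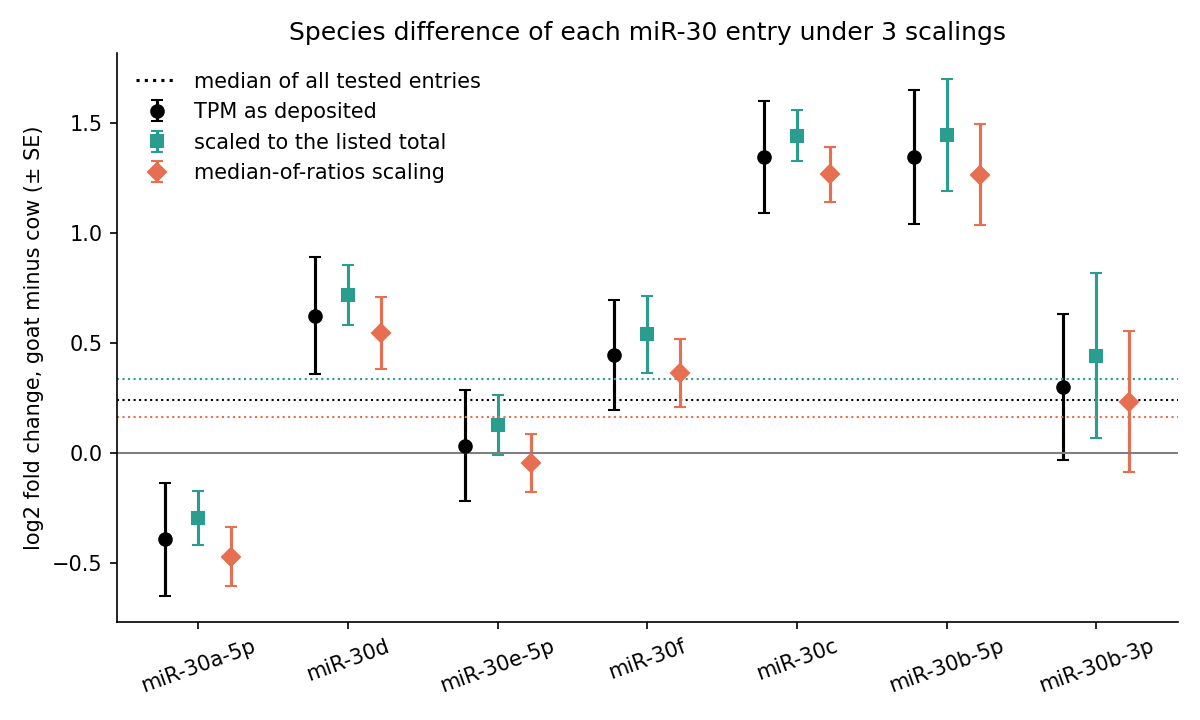
Log2 fold change, goat minus cow, of each miR-30 entry with its standard error by limma, for TPM as deposited, scaled to the listed total, and with median-of-ratios scaling. Dotted lines mark the median of all 217 tested entries, miR-30a-5p lies below 0 under each of the 3 scalings, and miR-30e-5p slightly below 0 with median-of-ratios scaling.

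The composition of the family does not depend on such scaling. miR-30a-5p made up 67.2%, 66.0%, 68.0%, 64.1% and 74.3% of it in cows 1, 2, 3, 20 and 62, and 51.6%, 43.7%, 53.3% and 57.6% in goats 17, 44, 79 and 127. miR-30d took 27.1%, 26.2%, 25.5%, 28.9% and 18.5% in the cows and 38.4%, 46.0%, 37.1% and 32.4% in the goats. In neither form did a goat fall within the cow range, miR-30a-5p taking less of the family in goats and miR-30d more. The mean share of miR-30a-5p was 67.9 ± 3.86% in cows (SD, n = 5) and 51.6 ± 5.82% in goats (SD, n = 4), and that of miR-30d was 25.3 ± 4.00% and 38.5 ± 5.64%. miR-30c held 1.26 ± 0.13% of the family in cows and 3.16 ± 0.16% in goats, and miR-30b-5p 0.345 ± 0.0992% and 0.852 ± 0.165%, again with no overlap. miR-30e-5p held 3.22 ± 0.45% and 3.25 ± 0.18%, while miR-30f, at 1.99 ± 0.31% and 2.69 ± 0.42%, overlapped by 1 goat. These shares are descriptions and were not tested, and as parts of a whole they cannot move independently.

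**Figure D3:**
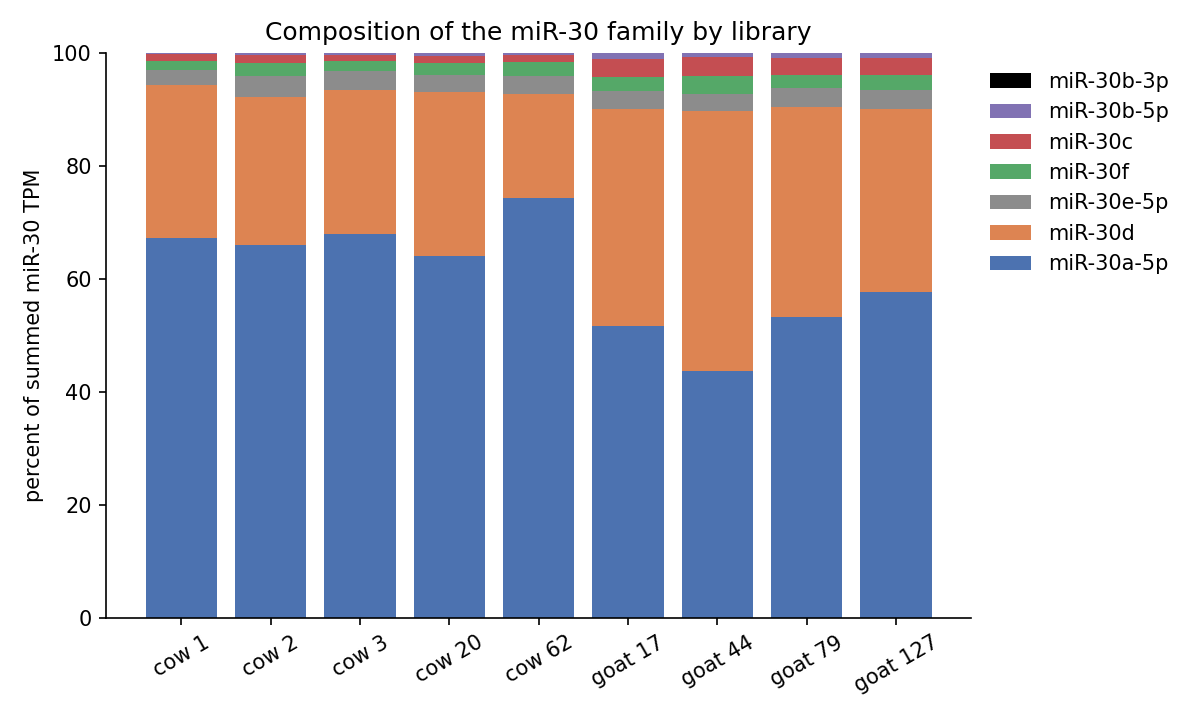
Percent of the summed miR-30 TPM held by each entry, stacked to 100% for each of the 5 cow and 4 goat libraries. The miR-30a-5p segment is 64.1% to 74.3% in cows and 43.7% to 57.6% in goats, and the miR-30d segment is wider in every goat than in any cow.

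The family was more even in every goat than in any cow. The effective number of members (inverse Simpson index, which is 1 when a single member holds all tags) was 1.70 to 2.02 in cows and 2.27 to 2.47 in goats. The set of miR-30b-5p, miR-30c and miR-30f took 3.04% to 4.00% of the family in cows and 6.24% to 7.24% in goats, and its summed level was 1159 ± 269 TPM (SD, n = 5) and 2180 ± 468 TPM (SD, n = 4). The other set, of miR-30a-5p, miR-30d and miR-30e-5p, overlapped at 31124 ± 6252 TPM and 30450 ± 6890 TPM. Grouped by neighbouring bovine genes, the forms of MIR30D and MIR30B held 18.9% to 29.4% of the family in cows and 33.3% to 46.6% in goats. Those of MIR30A and MIR30F held 66.1% to 76.7% in cows and 47.0% to 60.3% in goats. Those of MIR30E and MIR30C held 3.77% to 5.21% in cows and a narrow 6.36% to 6.46% in the 4 goats. Single members dominate the first 2 of these groups. By mean, miR-30d held 25.3% of the family in cows and 38.5% in goats, of 25.6% and 39.3% for its group. miR-30a-5p held 67.9% and 51.6%, of 69.9% and 54.3%. Neighbours did not move alike, since the mean share of miR-30f was higher in goats and that of miR-30a-5p lower, and miR-30e-5p stayed level beside a higher miR-30c. If miR-30a-5p is set aside, the rest of the family amounted to 2.70% to 3.34% of the listed TPM in cows and 4.59% to 5.97% in goats, and miR-30d formed 78.4 ± 4.21% and 79.2 ± 2.17% of that remainder.

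To ask whether members differed unequally, the log2 ratio within a library was compared between species for each of the 21 pairs, by a two-sided exact permutation test adjusted over all 23436 pairs of tested entries. Of the 21 pairs, 12 passed and 9 had ranges that did not overlap. Over all 23436 pairs the shares were 71.6% and 65.2%, so the number of unequal shifts does not set the family apart, and the pairs are given for their own values. The smallest p this design allows is 0.00794.

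The ratio of miR-30a-5p to miR-30d, which differ by a single base, was 2.48, 2.51, 2.66, 2.22 and 4.02 in cows 1, 2, 3, 20 and 62, and 1.34, 0.951, 1.44 and 1.78 in goats 17, 44, 79 and 127. Thus miR-30a-5p led in all 5 cows and in 3 goats, and miR-30d led in goat 44. The log2 ratio differed by -1.01 (95% interval -1.58 to -0.50; exact permutation test, p = 0.00794, adjusted p = 0.0132). Against miR-30f, product of the neighbouring gene, the ratio of miR-30a-5p was 30.0 to 40.7 in cows and 13.3 to 23.2 in goats, a difference of -0.83 on the log2 scale (95% interval -1.28 to -0.45; exact permutation test, adjusted p = 0.0132). Its log2 ratio to miR-30c and to miR-30b-5p differed by -1.73 each (exact permutation test, adjusted p = 0.0132 for both). Its log2 ratio to miR-30e-5p differed by -0.43 (exact permutation test, adjusted p = 0.0241), and this call was lost when any 1 of the 4 goats was left out, with adjusted p from 0.0503 to 0.0744 in the same exact test and the difference at -0.45 to -0.38.

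The order of the members of middle abundance differed between species. miR-30f was above miR-30c in all 5 cows, at ratios of 1.39 to 1.95, and below it in all 4 goats, at 0.733 to 0.988. The log2 ratio differed by -0.90 (95% interval -1.20 to -0.61; exact permutation test, adjusted p = 0.0132), for sequences that differ by C9T and in length. miR-30e-5p was 2.18 to 3.05 times as abundant as miR-30c, its neighbour in the bovine genome, in cows, and 0.915 to 1.17 times in goats (log2 difference -1.31, exact permutation test, adjusted p = 0.0132). The log2 ratio of miR-30d to miR-30c differed by -0.72 (exact permutation test, adjusted p = 0.0241). The ratio of miR-30c to miR-30b-5p, the members past the limma threshold, was 2.80 to 5.81 in cows and 3.11 to 5.16 in goats, with a log2 difference of 0.00 (exact permutation test, adjusted p = 1), with a 95% interval from -0.59 to 0.57 that holds shifts either way.

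**Figure D4:**
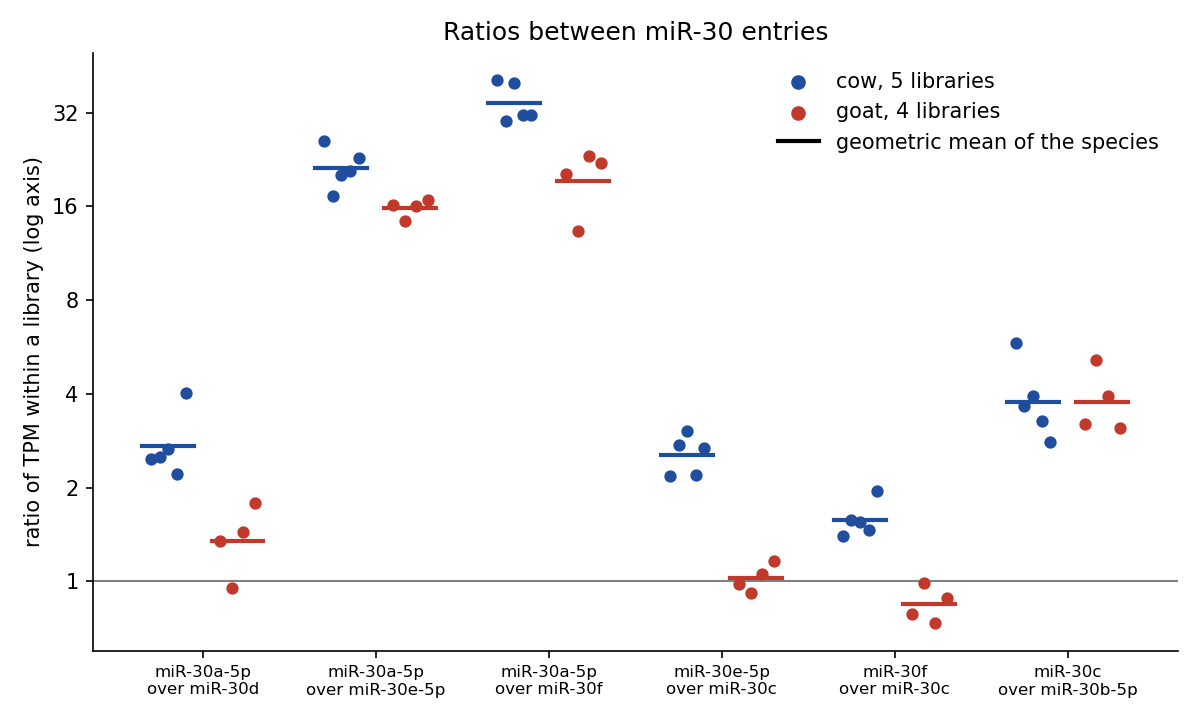
Ratio of TPM between 6 pairs of miR-30 entries within each library on a log axis, with a bar at the geometric mean of each species (cow, 5 libraries, blue; goat, 4 libraries, red). The ranges are apart for the first 5 pairs and overlap for miR-30c over miR-30b-5p, while miR-30f over miR-30c lies above 1 in every cow and below 1 in every goat.

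Other pairs did not pass. The log2 ratio of miR-30d to miR-30f differed by 0.18 (95% interval -0.27 to 0.77; exact permutation test, adjusted p = 0.589). That of miR-30d to miR-30b-5p, whose genes are neighbours, differed by -0.72 with a wide interval of -1.60 to 0.10 (exact permutation test, adjusted p = 0.120). That of miR-30d to miR-30e-5p differed by 0.59 and just missed the threshold (exact permutation test, adjusted p = 0.0639). With a pseudocount of 10 TPM in place of 1 it passed (exact permutation test, adjusted p = 0.0483). Of the 6 pairs with the scarce miR-30b-3p, only that with miR-30c passed (exact permutation test, adjusted p = 0.0443), and it was lost in 8 of 9 runs with an animal left out, in all but that without cow 62. The ratios of miR-30e-5p to miR-30f and of miR-30f to miR-30b-5p passed with all animals (exact permutation test, adjusted p = 0.0342 and 0.0241) and in 2 of 9 such runs each. Those were the runs without cow 62 or goat 79 for the first pair and without cow 20 or goat 44 for the second. With an animal left out, the smallest possible p rises to 0.0286 or 0.0179, so a call lost in such a run does not show a smaller difference, and a call kept there at that smallest p is no measure of stability.

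The members varied by different amounts within a species. The coefficient of variation of TPM was 20.7% to 29.5% in cows and 17.3% to 35.8% in goats for the 6 seed-sharing forms, with miR-30b-5p the most variable of these in both. That of the scarce miR-30b-3p was 41.3% and 34.8%. The listed total itself varied by 21.6% in cows and 26.2% in goats, so these values include spread shared by whole libraries. As percent of the listed TPM, the 6 forms varied by 9.35% (miR-30c) to 31.0% (miR-30b-5p) in cows. In goats the same 2 forms marked the ends, at 5.38% and 19.6%. Goat 17, the goat library of highest listed total, gave the highest value of 6 members and the lowest of the remaining one, miR-30b-3p, together with goat 127. In the ratios goat 44 stood lowest for miR-30a-5p, and cow 62 highest, both against miR-30d.

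Each seed-sharing member had entries outside the family nearest to it in profile. Likeness was taken as the root mean square difference, over the 9 libraries, of log2(TPM + 1) after each entry was centred on the mean of its 2 species means, among entries with a mean of at least 10 TPM. The nearest to miR-30a-5p were miR-26b, miR-374a and miR-20a, at differences of 0.15, 0.16 and 0.17 on the log2 scale, whereas miR-30e-5p was in place 13 and miR-30d in place 75 of 148. miR-30d was nearest to miR-423-3p, miR-191 and let-7f (0.14, 0.15 and 0.20), and miR-30e-5p to miR-26a, miR-22-3p and miR-29a (0.12, 0.13 and 0.17). For miR-30f they were miR-484, miR-98 and let-7g (0.17, 0.19 and 0.21), and for miR-30c miR-7, miR-3613a and miR-339a (0.22, 0.23 and 0.24). miR-30b-5p was nearest to miR-331-3p and miR-499 (0.16 and 0.29), with miR-30c in place 3 (0.32). This was the only seed-sharing member with a relative among its nearest 3. For the other seed-sharing members the nearest relative stood between place 10 (for miR-30c) and place 17 (for miR-30e-5p) of 148. Relatives are few among these candidates, so their absence from the nearest 3 does not show that members differ in profile. The profiles were not scaled, so each also carries the listed total of its libraries. The scarce miR-30b-3p had miR-191, miR-30d and miR-210 at 0.38, 0.40 and 0.41, and the family total had miR-148b, let-7g and miR-22-3p at 0.12, 0.16 and 0.19.

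Among miRNAs of the epithelial state, whose miR-200 branch restrains the ZEB transcription factors, 6 of the 8 listed were found in the table. By limma on the deposited TPM, 1 was higher in goats (miR-205), 1 was lower (miR-141) and the other 4 missed the threshold, beside 37.3% higher and 24% lower over all tested entries, the median log2 difference being -0.01. Their summed level was 30424 to 43532 TPM in cows and 26830 to 45365 TPM in goats. In every library miR-200a, miR-200b and miR-200c were abundant, whereas miR-205 was at 0 to 1 TPM in cows and 12 to 25 TPM in goats. The highest means were those of miR-200a and miR-200c in cows (13668 and 12112 TPM) and of miR-200a and miR-200b in goats (11977 and 11937 TPM). Of 8 abundant milk miRNAs, let-7b and miR-99a-5p were lower in goats by limma and none was higher, beside 24% of all tested entries lower and 37.3% higher, while the median log2 difference stood at -0.30. They were led by miR-148a and miR-21-5p, neither of which passed (adjusted p = 0.139 and 0.935, limma).

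Some markers of other cells differed between species as well. The 7 leukocyte miRNAs summed to 17 to 52 TPM in cows and 444 to 1230 TPM in goats. All 6 tested were higher in goats by limma, beside 37.3% of all tested entries. The highest means of this list were those of miR-155 and miR-342 in cows (20.8 and 7.60 TPM) and of miR-155 and miR-223 in goats (401.5 and 164 TPM). The goats differed widely from each other, with miR-155 at 218 to 813 TPM and miR-223 at 16 to 409 TPM. Of the 3 stromal and endothelial markers found, miR-143 alone was higher in goats by limma. miR-145, at 0 TPM in every cow and 1 to 2 TPM in goats, was not tested. The endothelial miR-126-3p, at means of 2.80 TPM in cows and 1 TPM in goats, did not pass (limma, log2 difference -0.92). The sum of the 3 was 19 to 30 TPM in cows and 217 to 425 TPM in goats, of which miR-143 gave means of 19.8 and 304 TPM. Red cell markers summed to 0 to 10 TPM in cows and 1 to 37 TPM in goats, and the muscle marker miR-1 to at most 2 TPM, with none of them tested. The part of such cells in the higher miR-30c and miR-30b-5p of goats was not tested.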

How the data were processed

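Small RNA of milk-derived EVs was sequenced by the authors with NEBNext libraries on an Illumina NextSeq instrument, and tags were mapped and counted on bovine miRBase entries for both species. The program that mapped the tags and its build, not given in the sources used here, remain unknown. As a score, the deposited table gives the authors' TPM (tags per 1000000), rounded to whole numbers. TPM keep no read number, and the paper states read numbers only as means, overall and by species. The depth of each library is therefore unknown and no counting interval was computed.

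For goats against cows, limma 3.58.1 in R 4.3.3 was fitted to log2(TPM + 1), letting variance follow mean level. It took the 217 entries that passed 1 TPM in 4 or more libraries, with Benjamini-Hochberg adjustment and a threshold of 0.05. Such fold changes understate the change of low entries. For pair ratios a two-sided exact permutation test was used, and its 95% interval holds the shifts that the test keeps. The limma script was tested on simulated data. Python 3.11.15 was used for the rest.

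Members and lists were chosen with earlier results of these data known. The named miRNAs are the members, the 3 entries nearest in profile to each member and to the total, and up to 2 of highest mean per list. The remaining members of lists named here, namely miR-200b, miR-141, miR-205, miR-342, miR-223, let-7b, miR-99a-5p, miR-126-3p and miR-145, were chosen after their values were seen. Alternatives were pseudocounts of 0.1 and 10, other filters, 3 other scalings, limma with no trend or with weights by species, and leaving out each animal in turn.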

Additional observations from a re-analysis of the deposited data

How the results depend on the processing

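With all animals, scaling was the choice that moved the calls on members. Scaled to the listed total, the log2 fold change was -0.30 for miR-30a-5p, 0.72 for miR-30d and 0.54 for miR-30f, all past the threshold by limma, and the members called were 4 higher and 1 lower. With miR-148a left out of that total, miR-30a-5p (-0.48) and miR-30d (0.54) passed, and with median-of-ratios scaling they did too (-0.47 and 0.54), with 1 member lower each time. miR-30e-5p turned to -0.053 under the first of these and to -0.045 under the second. The other pseudocounts and filters, limma without a trend and species weights changed no call on a member, though with only entries above 0 in all libraries tested, 39 entries in all were higher and 33 lower in place of 81 and 52. Without miR-30a-5p, the only member with a negative difference on the deposited TPM, the log2 difference of the family total was 0.61 in place of 0.01. The differences in share, in percentage points, were then 0.83 for miR-30d, -3.36 for miR-30e-5p, -0.79 for miR-30f, 2.62 for miR-30c, 0.70 for miR-30b-5p and -0.00654 for miR-30b-3p. These are shares of a remainder with means of 10341 TPM in cows and 15779 TPM in goats. Its ranges overlapped, at 8236 to 13035 TPM in cows and 10988 to 19818 TPM in goats, and it was not tested.

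With each animal left out in turn, the log2 fold change of miR-30a-5p ran from -0.51 to -0.23, of miR-30d from 0.50 to 0.80, of miR-30e-5p from -0.075 to 0.17 (negative without cow 3, cow 20, goat 17 or goat 79), of miR-30f from 0.33 to 0.55, of miR-30c from 1.21 to 1.48, of miR-30b-5p from 1.14 to 1.55 and of miR-30b-3p from 0.11 to 0.41. miR-30c and miR-30b-5p passed in all 9 runs, at adjusted p up to 0.00232 and 0.00866 (limma). The family total ran from -0.11 to 0.11 in log2 difference. The pairs past the threshold numbered 8 to 12 in these runs, whose smallest possible p is 0.0286 without a cow and 0.0179 without a goat, against 11 with a pseudocount of 0.1 or with entries above 0 in all libraries, and 14 with a pseudocount of 10. The log2 ratio of miR-30c to miR-30b-5p turned to -0.00481 with a pseudocount of 0.1, and between -0.15 and 0.16 without an animal. That of miR-30f to miR-30b-3p ran from -0.062 to 0.41. Labels give the species no shared animal numbers, so no pairing was fitted. The depth of each library is unknown, and rounding to whole TPM is coarse for miR-30b-3p at 2 to 8 TPM.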

Other observations

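EV-loading letter runs described in human cells were looked for in the 7 members, on the mature strand only. GGAG was found in miR-30b-3p alone of the members and in 9.80% of the 296 entries. CCCT was found in miR-30f alone of the members and in 9.12% of entries. A match is only a run of letters.

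No animal was flagged by Dixon's criterion in the 32 groups screened, which were the TPM and the family share of each member, the family total and its share of the listed TPM. With 4 goats and 5 cows it flags only a very isolated value, so the lack of flags does not show that animals were alike. The miR-30a-5p share of cow 62, 74.3% against 64.1% to 68.0% in the other cows, was not flagged.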
